A study of Mus musculus with 2 samples.

Results

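The genes followed here were 5 components of the killing granule, Gzma, Gzmb, Gzmk, Prf1 and Nkg7, chosen by name from the 56941 features of the count matrices, each of which matched 1 feature. They were measured by droplet single-cell RNA sequencing of CD45+ cells isolated from liver metastases of C57BL/6 mice. The mice were 6 to 8 weeks old, received MC38-LM3b colorectal cancer cells by intrasplenic injection, and had their metastases collected 2 weeks later. The tumour cells of the Ctrl library (MC38-LM3b-shScramble) carried a scrambled hairpin and those of the KD library (MC38-LM3b-shSLAMF3) carried 1 hairpin against SLAMF3, the product of Ly9. MC38-LM3b is a line selected for liver metastasis, the hairpin acted in the injected tumour cells, and the immune cells of both libraries came from hosts without a hairpin. Each library pooled the cells of 3 mice, so there was 1 library per group. The groups were therefore compared without a test. Intervals are given at 95% and cover counting error only, not the spread between mice.

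Cytotoxic lymphocytes kill by releasing granules onto a target cell. Perforin, the product of Prf1, makes pores through which granzymes, serine proteases stored in the granule, enter the target. Granzyme A and granzyme K cut after basic residues, while granzyme B cuts after aspartate and sets off cell death. Nkg7 encodes a granule membrane protein that takes part in granule release. In the liver these genes are known from CD8+ T cells, NK cells and type 1 innate lymphoid cells (ILC1).

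The granzyme genes lie in separate clusters of the genome. In RefSeq, Gzma and Gzmk were direct neighbours on chromosome 13, and Gzmc and Gzmf preceded Gzmb on chromosome 14. Because Gzma, its neighbour Gzmk and Gzmb differed in how far they moved between the libraries, the 300 bases around the start of each are shown (250 before and 50 after), read 5′ to 3′ along the gene from RefSeq on GRCm38.p6. They are chr13:113100932-113101231 for Gzma, chr13:113180916-113181215 for Gzmk and chr14:56262285-56262584 for Gzmb, all on the minus strand. Capitals mark matches on either strand to a T-box motif (AGGTGT or ACACCT) or a RUNX motif (TGTGGT or ACCACA), the factor families of T-bet, Eomes and Runx3.
Gzma promoter: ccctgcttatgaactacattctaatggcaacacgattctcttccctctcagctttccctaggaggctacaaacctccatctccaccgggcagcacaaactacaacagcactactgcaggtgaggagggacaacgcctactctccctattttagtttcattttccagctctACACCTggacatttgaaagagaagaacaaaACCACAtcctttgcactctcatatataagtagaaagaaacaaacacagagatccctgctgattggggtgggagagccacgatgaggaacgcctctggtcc
Gzmk promoter: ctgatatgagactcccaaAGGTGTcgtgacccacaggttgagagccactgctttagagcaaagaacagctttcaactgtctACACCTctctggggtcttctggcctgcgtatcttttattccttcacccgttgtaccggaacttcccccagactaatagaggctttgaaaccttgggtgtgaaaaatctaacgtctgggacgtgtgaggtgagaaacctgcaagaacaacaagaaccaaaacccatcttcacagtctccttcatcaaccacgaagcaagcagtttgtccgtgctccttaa
Gzmb promoter: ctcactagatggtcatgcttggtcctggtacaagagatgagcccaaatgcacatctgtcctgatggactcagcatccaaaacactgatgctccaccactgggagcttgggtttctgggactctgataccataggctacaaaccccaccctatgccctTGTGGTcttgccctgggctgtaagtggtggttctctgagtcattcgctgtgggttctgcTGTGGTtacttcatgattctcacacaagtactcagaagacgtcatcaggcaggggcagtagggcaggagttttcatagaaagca
The Gzma window held 1 T-box and 1 RUNX match, the Gzmk window held 2 T-box matches and the Gzmb window held 2 RUNX matches. The Prf1 and Nkg7 windows, which are not shown, each held 1 T-box and 1 RUNX match, as the Gzma window did. Of 32817 promoters of this length, 13.7% held the T-box letters and 16.8% held the RUNX letters. These matches describe the sequence and were not tied to any reading of the libraries.

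After filtering, 9814 Ctrl cells (median 5411.5 UMIs, or unique molecules, per cell) and 10185 KD cells (median 4989 UMIs) remained, and 24 cell barcodes occurred in both libraries. Cells were clustered without the granzymes, Prf1 and Nkg7, and classes were named from marker genes, so each name means that cells were like the named type and may differ from the names the study gave. T and NK cells were 3635 cells in Ctrl (37.0%) and 2348 in KD (23.1%). They held 2565 and 1025 CD8 T cells, 123 and 338 CD4 T cells, 80 and 121 regulatory T cells (Tregs), 152 and 118 NK cells, and 15 and 94 ILC1-like cells. Ly9, the targeted gene, stood at 5.91 counts per 1000000 UMIs of the class (CPM) in Ctrl and 5.36 CPM in KD in the tumour-like or fibroblast-like class, from 12 and 7 UMIs, which does not check the knockdown in the tumour.

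The members were carried by different classes. Gzma was highest in NK cells, at 4494 CPM in Ctrl and 7582 CPM in KD, and ILC1-like cells, at 4636 and 5778 CPM, above CD8 T cells at 321 and 2417 CPM. The intervals of NK and ILC1-like cells overlapped in Ctrl and were apart only in KD, where NK cells led. With both libraries summed, no other named class of 16 reached 100 CPM of Gzma. Gzmk had the narrowest pattern, with a summed level of 113 CPM in CD8 T cells, 52.8 CPM in CD4 T cells and 40.4 CPM in ILC1-like cells, where the last 2 overlapped in their intervals. NK cells held 10 UMIs of Gzmk in all (8.94 CPM), within the interval of endothelial cells.

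Gzmb was the member shared most widely with regulatory cells. It was at 952 CPM in Ctrl and 1486 CPM in KD in ILC1-like cells, at 873 and 914 CPM in CD8 T cells, at 718 and 769 CPM in Tregs and at 505 and 862 CPM in NK cells. Their order differed by library: in Ctrl ILC1-like and CD8 T cells overlapped in their intervals and Tregs stood above NK cells, while in KD ILC1-like cells were apart and NK cells overlapped with both Tregs and CD8 T cells. In CD4 T cells the summed Gzmb level was 36.3 CPM, which overlapped with the 37.3 CPM of endothelial cells. Prf1 was at 421 CPM in Ctrl and 295 CPM in KD in CD8 T cells and at 367 and 392 CPM in NK cells, so NK cells were above CD8 T cells in KD and their intervals overlapped in Ctrl. ILC1-like cells read 122 and 103 CPM of Prf1. Nkg7 was present across T and NK cells. It was at 1819 and 1769 CPM in CD8 T cells and at 1260 and 1812 CPM in NK cells, below CD8 T cells in Ctrl and overlapping with them in KD. ILC1-like cells read 1142 and 1236 CPM, overlapping with NK cells in Ctrl, CD4 T cells at 652 and 810 CPM, Tregs at 600 and 698 CPM and naive-like T cells at 473 and 474 CPM.

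**Figure D1:**
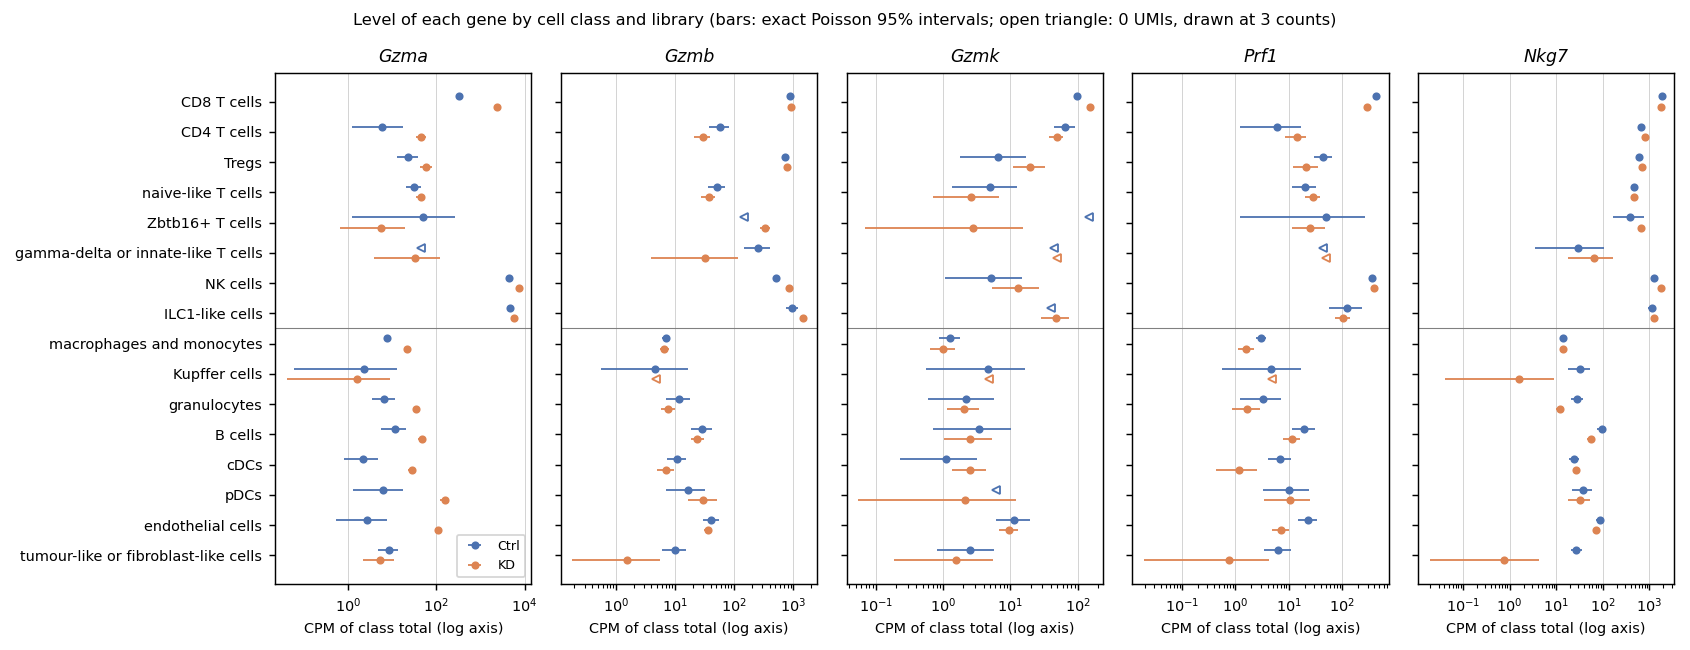
Level of each member by cell class, in CPM of the class total on a log axis, with 1 point per library (Ctrl and KD) and bars for exact Poisson 95% intervals. Gzma in CD8 T cells is the widest gap between the libraries among the CD8 points, at 321 CPM in Ctrl and 2417 CPM in KD, while Nkg7 in the same cells sits at 1819 and 1769 CPM.

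Cells that should lack these genes set the background of free RNA. In macrophages and monocytes, Gzma read 7.72 CPM in Ctrl and 21.1 CPM in KD, and in B cells 11.5 and 46.9 CPM. These were between 1.08% and 2.95% of the level in all T and NK cells of the same library. Endothelial cells read 2.62 CPM of Gzma in Ctrl and 109 CPM in KD, and plasmacytoid dendritic cells 6.12 and 155 CPM. Against the same T and NK level, endothelial cells were at 0.674% in Ctrl and 5.58% in KD. Plasmacytoid dendritic cells were at 1.58% and 7.90%. In granulocytes Gzma read 6.61 and 35.3 CPM, and in conventional dendritic cells 2.18 and 27.7 CPM. The tumour-like or fibroblast-like class read 8.38 and 5.36 CPM and Kupffer cells 2.31 and 1.60 CPM, from 17 UMIs or fewer. So the Gzma reading was higher in KD in 6 of 8 classes outside T and NK cells. CD4 T cells, Tregs and naive-like T cells read 45.3, 59.1 and 44.2 CPM of Gzma in KD, below endothelial cells. In Ctrl they read 5.91, 23.2 and 31.1 CPM, and the values of the last 2 lay above those of these 8 classes. The intervals of both Tregs and naive-like T cells overlapped with that of B cells, however. That of Tregs also overlapped with those of plasmacytoid dendritic cells, the tumour-like or fibroblast-like class and Kupffer cells.

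CD8 T cells held most UMIs of every member in both libraries. For Gzma they held 61.9% of the library's UMIs in Ctrl and 63.8% in KD. Their part of Gzmb was 86.2% in Ctrl and 70.4% in KD, that of Prf1 85.8% and 75.6%, and that of Nkg7 85.9% and 66.5%. NK cells held 23.1% of Gzma in Ctrl and 13.2% in KD, and ILC1-like cells 2.99% and 7.49%. Tregs held 1.95% of Gzmb in Ctrl and 5.20% in KD. In all filtered cells together, Gzma was at 177 CPM in Ctrl and 496 CPM in KD, while Gzmb was at 346 and 170 CPM and Prf1 at 167.5 and 51.2 CPM. These totals also read the smaller share of T and NK cells in KD, and a CD45 selection set which cells entered either library.

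**Figure D2:**
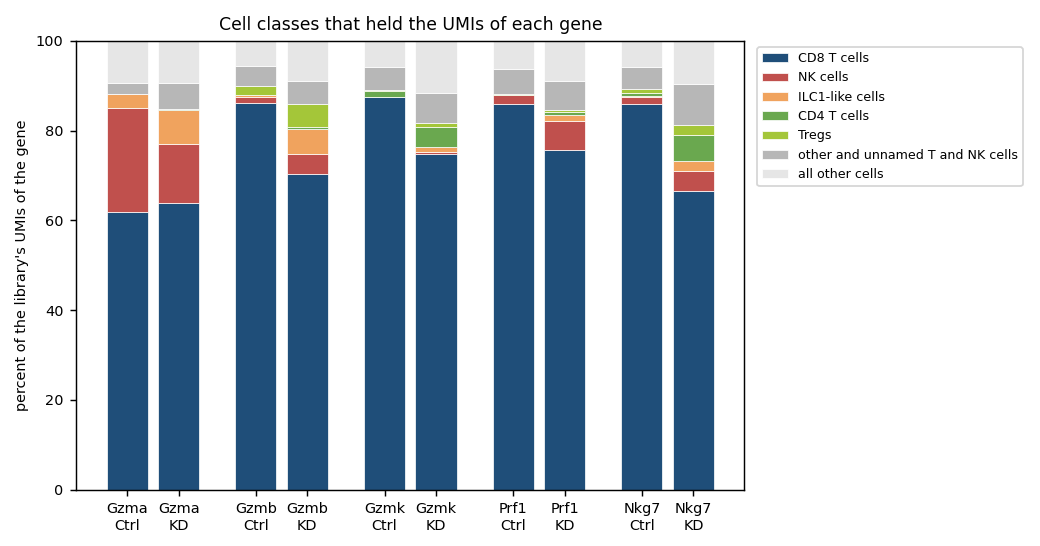
Share of each member's UMIs, in percent of the library's UMIs of that gene, that came from each cell class in Ctrl and in KD. CD8 T cells supply 61.9% and 63.8% of Gzma, whereas their part of Nkg7 is 85.9% in Ctrl and 66.5% in KD.

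The comparison of the hairpins in CD8 T cells asked whether the killing genes differed in the cells that infiltrated metastases of SLAMF3 knockdown tumours. Gzma was far higher in KD, Gzmk was moderately higher, Prf1 was lower, and Gzmb and Nkg7 were nearly level. Gzma counted 7053 UMIs among Ctrl cells (321 CPM) and 19549 among KD cells (2417 CPM), a log2 ratio of KD over Ctrl of 2.91 (2.87 to 2.95), or 7.52-fold. Among 8863 genes with at least 200 UMIs in the class, 0.564% were at least 2-fold higher in KD and 0.632% at least 2-fold lower. Of the 5 members, all of which passed that minimum, 1 was at least 2-fold higher and 0 were lower. Gzma sat at the 99.99th percentile of those log2 ratios, whose median was -0.03.

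Gzmk was at 99.2 CPM in Ctrl and 151 CPM in KD (log2 ratio 0.61, 0.50 to 0.71). Prf1, the pore former, was at 421 CPM in Ctrl and 295 CPM in KD (log2 ratio -0.51, -0.58 to -0.45). Gzmb was at 873 and 914 CPM (0.07, 0.03 to 0.10), and Nkg7 at 1819 and 1769 CPM (-0.04, -0.07 to -0.01). The 2 neighbouring tryptase genes were thus both higher in KD and Prf1 was lower, without any replicate to show the spread between mice. The sign of Gzmb was not stable. It stood at -0.09 when CD8 T cells were taken from marker UMIs of single cells and at -0.13 when naive-like T cells were added.

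CD8 T cells fell into 6 sub-clusters, each called by its leading or marker genes. In Ctrl and KD respectively there were 776 and 173 exhausted-like cells (30.3% and 16.9% of CD8 T cells), 552 and 324 Ly6c2+ cells (21.5% and 31.6%), 679 and 301 cycling cells, 325 and 145 Mcm2+ cells, 149 and 35 Ccnb2+ cells, and 84 and 47 Tcf7+ Slamf6+ cells. Exhausted-like cells carry checkpoint receptors, and Tcf7 marks T cells that keep the capacity to renew. The Ly6c2+ sub-cluster had 2 genes of the monocyte list, Ly6c2 and Ccr2, and no CD8 gene among its 10 leading genes, so the pooled values are also given without it. Its Cd3e level was 521 CPM in Ctrl and 411 CPM in KD, beside 454 and 378 CPM in all CD8 T cells. Of the myeloid genes, Csf1r was at 0.913 and 6.46 CPM, Lyz2 at 80.8 and 94.1 CPM (40.0 and 45.5 in all CD8 T cells) and C1qa at 34.7 and 38.1 CPM (21.0 and 21.5), while macrophages and monocytes held 4852 and 6853 CPM of Lyz2.

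By CPM, Gzma was higher in KD in 6 of 6 sub-clusters and Prf1 was lower in 6 of 6, each with an interval that left out 0. In Ctrl, Gzma was highest in the Ly6c2+ cells, at 1508 CPM, against 144 CPM in exhausted-like and 184 CPM in cycling cells. The Ly6c2+ cells held 3305 of the 7053 Gzma UMIs of Ctrl CD8 T cells. In KD the Ly6c2+ cells read 3842 CPM, the smallest log2 ratio of the 6 (1.35, 1.29 to 1.41), and cycling cells read 2378 CPM (3.70, 3.62 to 3.77). Mcm2+ cells went from 182 CPM in Ctrl to 2596 CPM in KD, and Ccnb2+ cells from 497 to 5049 CPM. Exhausted-like cells reached 815 CPM (log2 ratio 2.50, 2.36 to 2.63). Tcf7+ Slamf6+ cells held 5 and 158 UMIs, a log2 ratio of 5.46 (4.21 to 7.11), but 153 of the 158 came from 1 cell and the other KD cells held 5 together. After thinning, 2 of 84 Ctrl and 2 of 47 KD cells of this sub-cluster had Gzma. The count of 6 thus rests on 1 cell for Tcf7+ Slamf6+ cells, and in the Ccnb2+ cells of KD 1 of 35 cells held 515 of 1248 UMIs. The order of the sub-clusters differed, with the Ly6c2+ cells leading in Ctrl and the Ccnb2+ cells in KD.

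**Figure D3:**
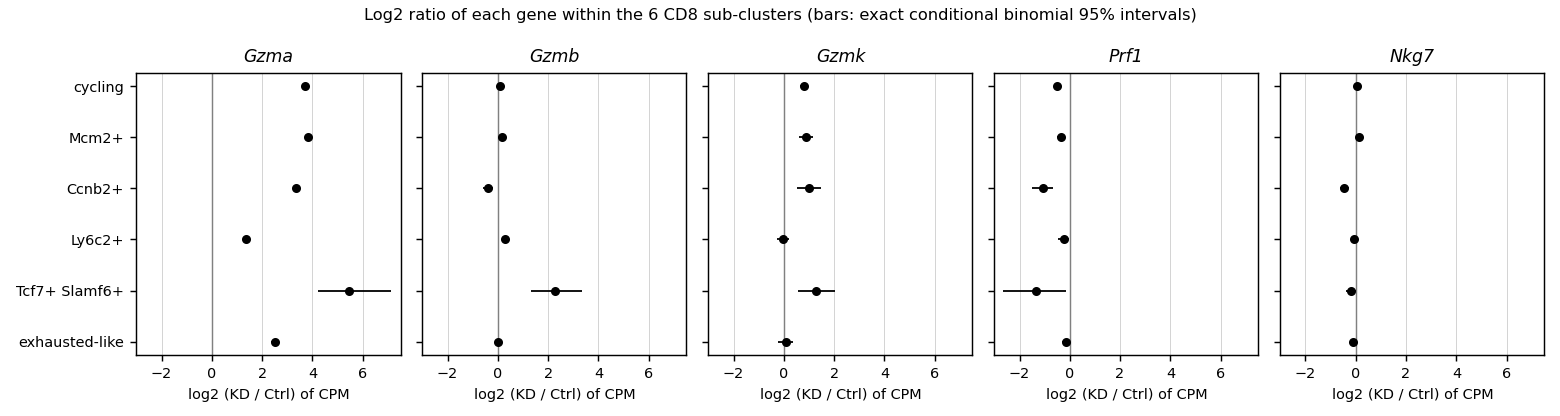
Log2 ratio of KD over Ctrl for each member in the 6 CD8 sub-clusters, with exact 95% intervals for counting error and a line at 0. All Gzma points lie above 0, from 1.35 to 5.46 (the last rests on 1 KD cell), and all Prf1 points lie below it, from -0.17 to -1.33.

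For the other members the ratios were smaller in most sub-clusters. Prf1 was highest in exhausted-like cells, at 563 CPM in Ctrl and 501 CPM in KD (-0.17, -0.29 to -0.04). The thinned share of these cells with Prf1 was not lower, at 44.8% in Ctrl and 47.4% in KD, with overlapping intervals. Its log2 ratio was lowest in Tcf7+ Slamf6+ cells, at 58.0 and 23.2 CPM (-1.33, -2.67 to -0.15), from 28 and 8 UMIs. Gzmk was higher in KD in 5 of 6 sub-clusters, 4 of them with intervals above 0, and its level in Ly6c2+ cells was 205 and 200 CPM (-0.03, -0.25 to 0.19). Gzmb was higher in 5 of 6, 4 of them with intervals above 0. In exhausted-like cells it was level, at 853 and 858 CPM (0.01, -0.09 to 0.10). In Tcf7+ Slamf6+ cells it had 12 and 42 UMIs, of which 1 KD cell held 38 (4.76% and 4.26% of thinned cells had it). Ccnb2+ cells were the exception, with Gzmb at 1356 and 1032 CPM (-0.39, -0.59 to -0.21). Nkg7 was higher in 2 sub-clusters and lower in the other 4, between -0.46 and 0.13.

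The mix of sub-clusters bore on the pooled values. With their shares held at those of Ctrl, the log2 ratio of Gzma was 2.79 and that of Prf1 was -0.36. Without the 3 sub-clusters led by cell cycle genes the Gzma ratio was 2.11, that is, over 1.5 times smaller as a fold, and without the Ly6c2+ sub-cluster it was 3.48. Without the latter, Gzmb was at 0.02, Gzmk at 0.69, Prf1 at -0.48 and Nkg7 at -0.06. Every one of these kept the direction of the pooled value.

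Markers of NK cells moved with Gzma inside the CD8 class. Ncr1, an NK cell receptor, had 15 UMIs in Ctrl (0.684 CPM) and 134 in KD (16.6 CPM), of which 124 came from 19 cycling KD cells, against 406 and 522 CPM in the NK class. Klrb1c, another NK receptor, had 11 and 64 UMIs. The summed NK list of 11 genes was at 462 CPM in Ctrl and 574 CPM in KD, with 9 genes higher. The summed granulocyte list was at 48.0 and 154 CPM. In the same class 6 of 6 T cell genes and 2 of 2 CD8 genes were lower in KD. Higher in KD were 5 of 5 CD4, 4 of 4 ILC1 and 2 of 5 Treg genes. So were 7 of 7 B cell, 8 of 8 endothelial and 10 of 14 macrophage or monocyte genes. Without every cell that held a UMI of Ncr1 or Klrb1c, which kept 99.4% of Ctrl and 96.6% of KD cells, the Gzma ratio was 2.84. Leaving out cells with Klre1 as well kept 53.6% and 50.1% of the cells and gave 2.42. Restricting the class to cells with UMIs of both Cd3 and Cd8 genes gave 2.99. The part of RNA from NK cells, granulocytes or other classes in these values was not tested.

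The levels of a class can differ because more cells carry a gene or because each carries more. With every cell thinned to 1500 UMIs (19 Ctrl and 10 KD cells were shallower and were dropped), a UMI of Gzma was found in 13.3% of CD8 T cells for Ctrl and in 35.2% for KD, a difference of 21.9 points (17.5 to 26.2). Without thinning, 513 of 2565 Ctrl cells and 44.8% of KD cells had one. In macrophages and monocytes, thinned alike, they were 0.737% and 0.919%, and in B cells 2.42% and 2.43%, so the CD8 shares stood above those of both classes. Among CD8 T cells with Gzma, the mean was 6.09 thinned UMIs in Ctrl and 12.2 in KD. The log2 ratio of thinned means, 2.40, was thus the sum of 1.40 from the share of cells and 1.00 from the level within them. Cells with 10 or more thinned UMIs of Gzma made up 2.47% of CD8 T cells in Ctrl and 15.1% in KD.

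Gzma was also the most unevenly spread of the members. The 10% of CD8 T cells with the most Gzma held 94.2% of its UMIs for Ctrl and 72.3% for KD. The median cell of either library had none. For Gzmb the top 10% held 44.0% and 42.5%, and for Nkg7 25.0% and 27.0%. Gzma was thus concentrated in a minority of cells in both libraries, and that minority was larger in KD.

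For the other members the thinned shares followed the levels. Gzmk was found in 14.3% of CD8 T cells in Ctrl and 20.7% in KD, a difference of 6.43 percentage points (2.56 to 10.4), and in 44.3% and 52.6% without thinning. Prf1 was found in 36.6% and 28.2%, a difference of -8.43 points (-13.1 to -3.68), and in 76.1% and 60.6% without thinning. The Gzmb shares were 53.8% and 55.4%, with an interval of the difference from -3.47 to 6.65 points, and 82.0% and 78.4% without thinning. Nkg7 was found in 88.9% and 88.1% of CD8 T cells, so nearly every cell of the class carried it in either library.

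**Figure D4:**
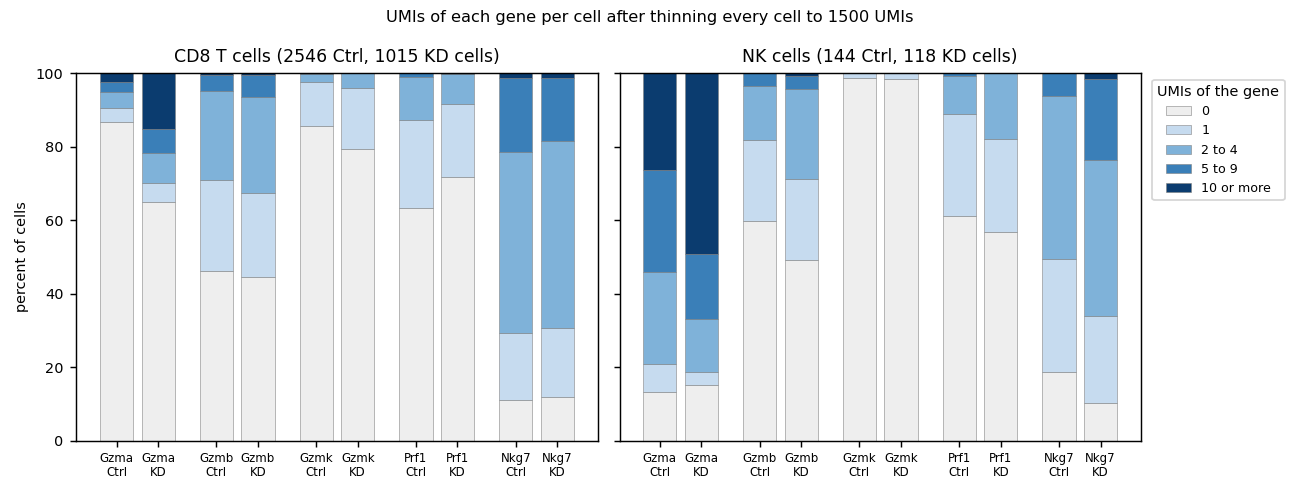
Share of cells, in percent, by their number of UMIs after thinning each cell to 1500 UMIs, for Ctrl and KD. CD8 T cells with 10 or more UMIs of Gzma are 2.47% in Ctrl and 15.1% in KD, and NK cells with that many are 26.4% and 49.2%.

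Gzma and Gzmb were read together in single CD8 T cells, since the proteases have different targets. After thinning, 8.96% of cells in Ctrl and 25.9% in KD held both, 4.36% and 9.26% held Gzma alone, and 44.8% and 29.5% held Gzmb alone. Cells with neither were 41.9% and 35.4%, and without thinning 15.6% and 17.2%, a difference of the opposite sign with an interval that held 0 (-2.19 to 5.37 points). The gain in KD was therefore mostly of cells with both granzymes, from 228 of 2546 cells in Ctrl to 263 of 1015 in KD (interval of the difference 13.1 to 20.8 points), while cells with Gzmb alone were 15.4 points fewer (difference -15.4, -20.1 to -10.5). Within cells that held both, Gzmk was found in 30.7% in Ctrl and 31.9% in KD, and Prf1 in 31.6% and 33.1%, which could not be told apart. In cells with Gzmb alone, Gzmk was found in 137 of 1141 cells in Ctrl and in 11.4% in KD. Prf1 was found in 44.1% and 37.1% of those cells, and in 31.0% and 18.4% of cells with neither granzyme. So within each library Gzmk was found more often in cells with both granzymes than in cells with Gzmb alone. For Prf1 the order was the opposite in Ctrl, and in KD the intervals overlapped.

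In NK cells, which rely on the same granules, Gzma, Gzmb and Nkg7 were higher in KD by less than 2-fold and the interval of Prf1 held 0. Gzma was at 4494 CPM in Ctrl and 7582 CPM in KD (log2 ratio 0.75, 0.68 to 0.83). Gzmb was at 505 and 862 CPM (0.77, 0.56 to 0.99), and Nkg7 at 1260 and 1812 CPM (0.52, 0.38 to 0.66). In KD, 1 of 118 NK cells held 94 of the 459 Gzmb UMIs, and the 12 cells with the most held 55.3%. Prf1 was at 367 and 392 CPM (0.10, -0.18 to 0.38), and Gzmk had 3 and 7 UMIs. Of 900 genes with at least 200 UMIs in NK cells, 0.0% were at least 2-fold higher in KD and 0.444% at least 2-fold lower, with a median log2 ratio of -0.08. In the same cells the summed granulocyte list was at 69.9 CPM in Ctrl and 259 CPM in KD, with 5 of its 11 genes (Retnlg, Cxcr2, Ly6g, Camp and Ltf) at 0 in at least 1 library. The ILC1 list of 4 genes was at 37.5 and 105 CPM, and the part of either list in the values was not tested. Of the 4 members tested, 0 passed 2-fold, and Gzma, Gzmb and Nkg7 had intervals wholly above that median. The Gzmb interval includes the KD cell with 94 UMIs.

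After thinning, 86.8% of 144 Ctrl and 84.7% of 118 KD cells had a UMI of Gzma, a difference between -14.9 and 10.5 points, which leaves the share undecided. With classes from marker UMIs the shares were 81.8% and 70.9%. The mean in cells with Gzma was 8.16 and 14.4 thinned UMIs. Cells with 10 or more were 26.4% in Ctrl and 49.2% in KD. Gzmb was found in 40.3% and 50.8% of NK cells, and the interval of that difference ran from -7.28 to 28.0 points, which at this number of cells left the share undecided. Nkg7 was found in 81.3% and 89.8%, with an interval from -4.36 to 20.7 points.

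ILC1-like cells, named for their likeness to tissue-resident relatives of NK cells, were few in Ctrl. The class also held T cell RNA, with Cd3e at 204 CPM in Ctrl and 106 CPM in KD. NK cells held 8.53 and 20.7 CPM of Cd3e, and CD8 T cells 454 and 378 CPM. The part of T cells in the values of this class was not tested. Their Gzma was at 4636 CPM in Ctrl, from 15 cells, and 5778 CPM in KD, from 94 cells (log2 ratio 0.32, 0.15 to 0.49). That direction was not stable. Weighting each ILC1-like cell equally left almost no difference in Gzma. After thinning to 1500 UMIs the mean was 10.1 UMIs of Gzma per cell in Ctrl and 8.23 in KD. The thinned share with Gzma was 40.0% in Ctrl and 60.2% in KD. Gzmb was at 952 and 1486 CPM (0.64, 0.28 to 1.02). Nkg7 was at 1142 and 1236 CPM (0.11, -0.22 to 0.47), and Prf1 had 9 and 41 UMIs (-0.25, -1.31 to 0.98). Gzmk had 0 UMIs in Ctrl, with an interval up to 50.2 CPM, and 19 in KD, at 47.8 CPM, which lay below that limit. The Ctrl values rested on 15 cells, so they describe those cells more than the class.

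CD4 T cells carried Nkg7 and some Gzmk but little else of the set. Nkg7 was at 652 CPM in Ctrl and 810 CPM in KD (0.31, 0.14 to 0.49), and 40.8% and 48.0% of thinned CD4 T cells had it. Gzmk was at 65.0 and 48.6 CPM (-0.42, -1.03 to 0.22), in 6.67% and 4.80% of thinned cells, above the 0.806% and 0.243% of B cells. Gzmb was at 57.1 and 29.3 CPM (-0.96, -1.67 to -0.23), in 6.67% and 1.80% of thinned cells, beside 2.42% and 1.58% of B cells. Gzma had 3 UMIs in Ctrl and 68 in KD, in 0.833% and 2.40% of thinned cells, which did not exceed the B cell shares, and Prf1 in 0.833% and 0.601% did not exceed them either. Tregs stood out by Gzmb, at 718 CPM in Ctrl and 769 CPM in KD (0.10, -0.09 to 0.28), found in 38.0% and 51.7% of thinned cells. Their Nkg7 was at 600 and 698 CPM (0.22, 0.02 to 0.42).

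Taking CD4 T cells and Tregs as 1 class of 203 and 459 cells, Gzmb was lower in KD (-0.64, -0.82 to -0.46) while within Tregs the interval held 0, and Tregs were 80 of 203 cells in Ctrl and 121 of 459 in KD. Nkg7 was at 0.31 (0.18 to 0.44), Gzmk at 0.24 (-0.33 to 0.84), Prf1 at -0.73 (-1.47 to 0.02) and Gzma at 1.70 (0.96 to 2.53). Of 2932 genes with 200 UMIs, 0.614% were at least 2-fold higher and 0.58% at least 2-fold lower, and of the 2 members tested, Gzmb and Nkg7, 0 passed 2-fold. Over all T and NK cells the mix of classes entered as well. Gzma went from 388 CPM in Ctrl to 1957 CPM in KD (2.33, 2.30 to 2.37), and Prf1 from 380 to 202 CPM (-0.91, -0.97 to -0.85). With each cell weighted equally, that Gzma ratio was 1.66.

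Most of the other granzyme genes were lower in KD in CD8 T cells. Of 7 other granzymes, 5 had at least 200 UMIs, and all 5 were at least 2-fold lower in KD. Gzmm, below that minimum with 55 and 37 UMIs, was at 2.51 CPM in Ctrl and 4.58 CPM in KD, and Gzmn had 0 and 1 UMI. Gzmf was at 117 CPM in Ctrl and 36.6 CPM in KD (-1.67), and Gzmd at 80.8 and 9.40 CPM (-3.10, -3.45 to -2.77). Gzmc was at 113 and 9.77 CPM (-3.54, -3.88 to -3.21), and Gzme at 92.8 and 4.45 CPM (-4.38, -4.90 to -3.91). Gzmg had 273 UMIs in Ctrl and 1 in KD (-6.65, -11.96 to -4.16). These are genes of the granzyme B cluster, expressed in strongly activated T cells, and their near-identical sequences make the split of reads among them uncertain.

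Gzmc to Gzmg were summed to see which cells carried them. The sum was at 416 CPM in Ctrl, in 396 of 2565 CD8 T cells (15.4%), and at 60.3 CPM in KD, in 31 of 1025 cells (3.02%). The 10% of Ctrl cells with the most held 98.2% of these UMIs. Ccnb2+ cells were highest in Ctrl at 1022 CPM and stood at 52.6 CPM in KD. Exhausted-like cells were at 561 and 42.4 CPM and cycling cells at 365 and 109 CPM. Ly6c2+ cells, where Gzma was highest in Ctrl, were at 8.21 and 5.74 CPM. These granzymes and Gzma were thus led by different sub-clusters in Ctrl.

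Genes that store and release the granule moved little. Of 8 storage and processing genes, 0 passed 2-fold in either direction, with a median of -0.09. The proteoglycan Srgn, which packs granzymes, was at 0.06 and Lamp1, a granule membrane protein, at 0.09, while the chaperone Calr was at -0.40 and Ap3b1, a sorting adaptor, at -0.31. Of 6 release genes tested, 0 passed 2-fold, from Stxbp2 at 0.35 and Rab27a at 0.08 to Vamp8 at -0.15 and Vamp2 at -0.30. Among 4 granzyme inhibitors, Serpinb9b was lower in KD, at 51.4 and 15.7 CPM (-1.71), and Serpinb9, the mouse inhibitor of granzyme B, was at -0.05. Serpinb6b was at 0.26 and Serpinb6a at -0.45.

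Of 8 other effector genes tested, 1 passed 2-fold. Xcl1, a chemokine that draws dendritic cells, was at 94.7 CPM in Ctrl and 312 CPM in KD (1.72), and the chemokine Ccl5 was at 0.65. Ifng, which encodes interferon gamma, was at -0.35 and the chemokine Ccl3 at -0.18. Of 10 transcription factors, 0 passed 2-fold, with Tcf7 at 0.97 and Stat4 at 0.33 highest and Runx3 at -0.25 and Zeb2 at -0.13 lowest. Of 7 receptors tested, 0 passed, from Klrk1, the gene of NKG2D, at 0.44 and Klrc1 at 0.26 to Il2rb, a receptor chain for interleukins 2 and 15, at -0.46 and Cx3cr1 at -0.66. The genes past 2-fold in these lists were thus other granzymes, 1 inhibitor and 1 chemokine.

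**Figure D5:**
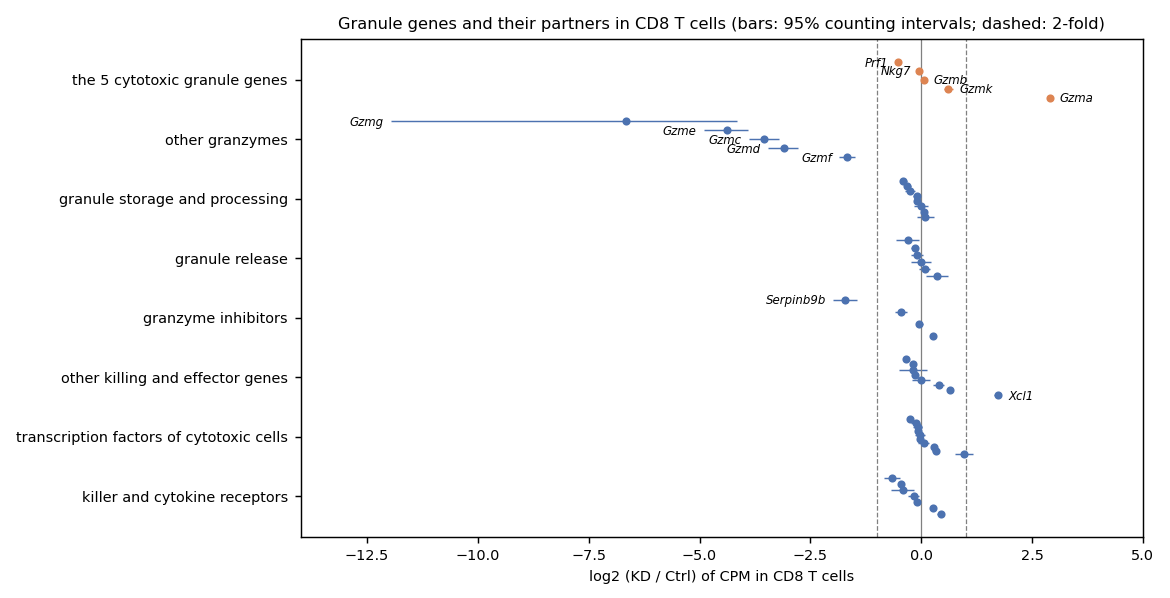
Log2 ratio of KD over Ctrl in CD8 T cells for the members and for each gene list, with 1 point per gene with at least 200 UMIs and lines at the 2-fold limits. Gzma at 2.91 and Xcl1 at 1.72 lie above the upper limit, and the 5 other granzymes, from -1.67 to -6.65, and Serpinb9b lie below the lower one.

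Genes with patterns like the members were sought over 26 profiles, the T and NK sub-clusters in each library, by Pearson r of log2(CPM + 1). The profiles share libraries and differ in depth, so r is only a description. Closest to Gzma were Cd7 (r = 0.79), Cd244a, Napsa, Serpinb6b and Efhd2. Gzmb was closest to Pmvk (0.82), Cnn2, Lat2, Actr3 and Capzb, and Gzmk to Lsp1 (0.88), Pdcd1, Ildr1 and Acadl. Prf1 was closest to Lat2 (0.88), Adamts14 (0.88), Gipc2, Tmprss6 and Rasal2, and Adamts14 is the neighbour of Prf1 on chromosome 10. Nkg7 was closest to Serpinb6b (0.88), Sub1, Cnn2, Efhd2 and Ly6a2. Among the members themselves, r ran from 0.36 between Gzmb and Gzmk to 0.78 between Prf1 and Nkg7, and Gzma with its neighbour Gzmk gave 0.45.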

How the data were processed

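The deposited files were feature-barcode matrices of raw UMI counts, not normalized, 1 per library, which the authors made with Cell Ranger 7.1.0 against GRCm39, per the submitters' processing notes, which also name Seurat 5.1.0 and R 4.4.1. The annotation release is not given in the sources used here. Groups were taken from the labels (1 library each, 3 mice pooled), and 0 columns of other samples were set aside. From the counts, a cell was kept when it had no fewer than 200 and no more than 6000 genes, up to 30000 UMIs and up to 10% of them mitochondrial. Cells were normalized and clustered (2000 variable genes without the members and other granzymes, 20 components, 20 neighbours, Leiden resolution 0.5, then 1.0 for T and NK cells; leidenalg 0.10.2, scikit-learn 1.9.0). Rules for names were set after the clusters were seen, and 482 Ctrl and 192 KD cells among T and NK cells stayed unnamed. Doublets were not removed. An alternative left out those that Scrublet (scanpy 1.11.5) scored highest, as many as a usual loading rate gives.

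UMIs were summed per class and library. Levels are CPM of the class total with exact Poisson intervals, shares have Clopper-Pearson intervals, and ratios have exact conditional binomial intervals (scipy 1.17.1), all at 95%. Reads per UMI were collapsed by the authors, and the intervals cover counting error only. A gene was called at a 2-fold difference among genes with at least 200 UMIs in a class. Cells were thinned to 1500 UMIs by a seeded draw. The ratio step was tested on simulated data for CD8 T cells over 8863 genes, where 200 of 200 changed genes were called. The members, and in each list the 2 highest and 2 lowest genes with 200 UMIs, are named, and for each member the 5 genes of highest r among those with at least 500 UMIs, of which 1 is not reported here. Gzmc, the third of the 5 other granzymes, was added after its values were seen. The members and lists were chosen with earlier results of these data known. Alternatives were edgeR 4.0.16 TMM factors, cell filters, other class definitions, weightings, thinning depths and gene minimums.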

Additional observations from a re-analysis of the deposited data

Results flagged for a closer look

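Of the members, 2 had log2 ratios of KD over Ctrl that pointed opposite ways in CD8 T cells and in another class with intervals that left out 0 in both. Prf1 (-0.51 in CD8 T cells, 0.10 in NK cells) also changed sign, but the interval of its NK value held 0. Gzmb was lower in KD in CD4 T cells and Tregs as 1 class and slightly higher in CD8 T cells, a difference between the ratios of -0.708. Nkg7 was higher in KD in NK cells and slightly lower in CD8 T cells, a difference of 0.564, and it was also higher in CD4 T cells and Tregs, a difference of 0.352. With 1 library per group these differences were not tested. The CD8 ratios of Gzmb and Nkg7 were near 0, and the sign of Gzmb there depended on how the class was drawn. The share of Tregs among CD4 cells differed between the libraries, and its part in the Gzmb value was not tested.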

How the results depend on the processing

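There was no replicate to leave out. No paired analysis was possible because each group had 1 library. Of 284 alternative values, 211 stayed within the counting interval of the main value, 68 moved beyond it and 5 were counted as changing sign. For numbers of genes or classes, staying meant a value close to the main one. A sign change was counted only where the main interval lay wholly on 1 side of no difference. Other changes of sign, as in the Gzmb share of CD8 T cells, are among the 211 and the 68. Some alternatives were chosen after seeing the data (naive-like T cells added, the Ly6c2+ sub-cluster, NK marker cells or cells without Cd3 and Cd8 UMIs left out). The causes of the moves were not tested.

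In CD8 T cells, weighting each cell equally gave log2 ratios of 2.42 for Gzma, 0.20 for Gzmb and 0.50 for Gzmk. Thinning gave 2.40 for Gzma, 0.22 for Gzmb and -0.0808 for Nkg7. Classes from marker UMIs gave 2.81 for Gzma, -0.0852 for Gzmb, 0.40 for Gzmk, -0.63 for Prf1 and -0.17 for Nkg7. With sub-cluster shares held at those of Ctrl, Gzma was at 2.79, Prf1 at -0.36 and Nkg7 at -0.0131. Without the sub-clusters led by cell cycle genes, Gzma was at 2.11, Gzmk at 0.31 and Nkg7 at -0.15. With naive-like T cells added, Gzma was at 2.71, Gzmb at -0.13, Gzmk at 0.41, Prf1 at -0.69 and Nkg7 at -0.18. Without Ly6c2+ cells, Gzma was at 3.48 and Gzmb at 0.0228. Without cells with Ncr1, Klrb1c or Klre1, Gzma was at 2.42, Gzmb at -0.0268 and Gzmk at 0.73, and leaving out Ncr1 or Klrb1c cells alone put Gzma at 2.84. In cells with Cd3 and Cd8 UMIs, Gzma was at 2.99, Gzmb at 0.14, Prf1 at -0.42 and Nkg7 at -0.00969.

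In NK cells, Gzmb was at 0.44 under the stricter cell filter and 0.56 with cells weighted equally. In CD4 T cells and Tregs, Gzmb was at -0.34 with cells weighted equally and -0.41 after thinning. In all T and NK cells, equal weighting gave 1.66 for Gzma, -0.13 for Gzmb, -0.0747 for Gzmk, -1.02 for Prf1 and -0.33 for Nkg7. Thinning there gave 1.66, -0.16, 0.0191, -0.998 and -0.37 in that order, and TMM factors put Nkg7 at -0.30.

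For shares of CD8 T cells, KD minus Ctrl in percentage points, no thinning gave -3.59 for Gzmb, -15.5 for Prf1, 22.7 for Gzma with Gzmb, 2.05 for Gzma alone, -26.3 for Gzmb alone and 1.54 for neither. Thinning to 3000 UMIs gave 21.3 for both and -21.9 for Gzmb alone. A minimum of 2 UMIs gave 1.68 for Gzmk, 11.4 for both, 8.96 for Gzma alone, -7.74 for Gzmb alone and -12.6 for neither. Classes from marker UMIs gave -5.01 for Nkg7 and -1.42 for neither. Without Ncr1, Klrb1c or Klre1 cells, Gzma was at 13.9, both at 9.99 and neither at -0.94.

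The number of genes past 2-fold rested on the UMI minimum. In CD8 T cells 50 were higher and 56 lower at 200 UMIs, 149 and 202 at 50 UMIs, and 287 and 272 without a minimum and with 0.5 CPM added. In NK cells 0 were higher and 4 lower, then 18 and 51, then 2560 and 3063. Values from few UMIs (Gzmk in NK cells, Gzma and Prf1 in CD4 T cells, ILC1-like cells in Ctrl) are limited by depth, and the spread between mice is unknown.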

Other observations

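The effector genes beside the members had other patterns in NK cells than in CD8 T cells. Of 5 such genes with at least 200 UMIs in NK cells, 0 passed 2-fold. The chemokine gene Ccl4 was highest, at a log2 ratio of 0.79 (0.62 to 0.95), followed by Ccl5 at 0.54 (0.48 to 0.60). Xcl1, which passed 2-fold in CD8 T cells, was at -0.10 in NK cells (-0.25 to 0.05), and the difference between the classes was not tested. Among 9 transcription factors tested in NK cells, Zeb2 was at 0.64 (0.36 to 0.93) and Id2 at 0.12, while Eomes was at -0.73 (-1.09 to -0.39) and Runx3 at -0.45 (-0.72 to -0.19). In CD4 T cells and Tregs together, Ccl4 and Ccl3 were at least 2-fold lower in KD, at -1.26 and -1.18. Il2ra, the interleukin 2 receptor chain of Tregs, was at -1.01 in this pooled class. Tregs were 80 of its 203 cells in Ctrl and 121 of 459 in KD, and the part of this mix in the 3 values was not tested.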
